A study of Mus musculus with 4 samples.

Results

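RNA levels of p53 and of 9 genes known as its direct targets were followed in cells of Hepa1-6, a mouse hepatocellular carcinoma line, with and without knockdown of Setdb1. The 10 genes, Trp53, Mdm2, Cdkn1a, Bbc3, Bax, Pmaip1, Ccng1, Sesn1, Phlda3 and Zmat3, were chosen by symbol, and each was found as 1 row among 54838 named genes. Both groups carried an shRNA. The controls carried one labelled NC and are given as Setdb1 wild type (control 1 and control 2), and the others one against Setdb1 (knockdown 1 and knockdown 2). All cells are of the one line, and the series describes them as subclones without saying how many were used. Nothing in the labels ties the 2 libraries of a group to separate cultures. Every p-value therefore rests on how far these libraries spread, and that spread may be technical.

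The p53 protein is a transcription factor that DNA damage and other stress stabilise, and it switches on genes that stop the cell cycle, start apoptosis or limit growth. Mdm2, itself switched on by p53, marks p53 for degradation and closes a negative feedback loop. In liver, p53 is a tumour suppressor that is often lost in carcinoma. Setdb1 is a histone H3 lysine 9 methyltransferase known for gene and retroelement silencing, and work in liver cancer cells has described p53 protein as another of its substrates. The RNA levels used here measure neither the amount nor the methylation of p53 protein.

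p53 binds DNA through pairs of a degenerate 10-base element, here called the p53 decamer, whose core is a C and a G with A or T between them. The RefSeq promoters of the GRCm38.p6 build, from 250 bases before to 50 bases after a gene's start, were available for 8 of the 10 genes in 12 windows. Zmat3 and Pmaip1 had no window, so their promoters were not searched. The consensus reads the same on both strands, so searching one strand covers both. An exact decamer occurred in 6 of the 12 windows, which belong to 6 of the 8 genes, Trp53, Mdm2, Cdkn1a, Bax, Ccng1 and Sesn1. It occurred in 8.36% of all 32851 promoter windows, and in at least 1 window of 9.55% of all 27025 genes. A pair of adjoining decamers with both cores intact and at most 1 other mismatch occurred in the upstream window of Cdkn1a, and in 0.0548% of all windows. The allowance of 1 mismatch was chosen after this window had been seen. The windows below are shown on the strand of the gene, with the decamers in capitals. They belong to Cdkn1a, whose knockdown libraries lay above the controls, and to Ccng1 and Bax, whose knockdown libraries lay below. None of these genes passed the test used below, and 51.6% of all genes tested were separated in one or the other direction. Of the other genes with a decamer, Sesn1 also lay below, and the groups of Trp53 and Mdm2 overlapped. Whether a decamer goes with a direction of change was not tested.

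Cdkn1a chr17:29090729-29091028 (+): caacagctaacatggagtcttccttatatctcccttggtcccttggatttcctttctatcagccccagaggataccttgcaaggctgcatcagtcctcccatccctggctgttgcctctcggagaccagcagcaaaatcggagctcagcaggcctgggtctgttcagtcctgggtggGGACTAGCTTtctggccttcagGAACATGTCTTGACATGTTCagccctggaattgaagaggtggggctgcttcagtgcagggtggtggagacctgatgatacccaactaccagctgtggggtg
Ccng1 chr11:40755237-40755536 (-): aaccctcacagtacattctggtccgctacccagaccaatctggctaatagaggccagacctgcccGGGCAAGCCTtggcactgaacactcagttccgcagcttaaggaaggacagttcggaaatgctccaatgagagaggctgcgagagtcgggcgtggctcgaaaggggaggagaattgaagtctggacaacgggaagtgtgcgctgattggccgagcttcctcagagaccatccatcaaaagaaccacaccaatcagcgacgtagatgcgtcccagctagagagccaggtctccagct
Bax chr7:45466849-45467148 (-): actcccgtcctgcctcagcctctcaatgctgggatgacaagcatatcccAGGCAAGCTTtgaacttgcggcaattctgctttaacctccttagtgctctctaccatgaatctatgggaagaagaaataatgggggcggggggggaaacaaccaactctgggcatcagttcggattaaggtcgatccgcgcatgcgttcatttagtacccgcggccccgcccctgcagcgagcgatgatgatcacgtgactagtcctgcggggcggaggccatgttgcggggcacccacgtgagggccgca

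In the Cdkn1a window the capitals nearest the start are the pair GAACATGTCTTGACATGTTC, beginning 51 bases before the start, with a further single decamer beginning 73 bases before it. The Ccng1 decamer GGGCAAGCCT begins 185 bases before the start, and the Bax decamer AGGCAAGCTT 201 bases before. Mdm2 holds GAACTTGCCT and Trp53 GGACTTGCCC, at 186 and 75 bases before their starts. Sesn1 holds AAGCTTGTTT, beginning 173 bases before a start. A match of letters is not a binding site, and its absence from a window says nothing of sites in introns or farther upstream.

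Trp53 was the most abundant of the 10 RNAs and Sesn1 the least. On the TPM scale, transcripts per unit of length and library total, the order in both control libraries was Trp53, Bax, Phlda3, Ccng1, Cdkn1a, Mdm2, Pmaip1, Zmat3, Bbc3 and Sesn1. In both knockdown libraries Phlda3 stood above Bax and Cdkn1a above Ccng1, and the other 6 genes kept their places. Trp53 was at the 96.5 to 97 percentile of the 12821 genes tested, whereas Sesn1 was at the 22.1 to 27.2 percentile. Of neighbours in this order, Trp53 and Bax overlapped in the controls (303 to 368 against 282 to 344 TPM), and Phlda3 and Bax in the knockdown libraries (225 to 228 against 219 to 227 TPM).

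**Figure D1:**
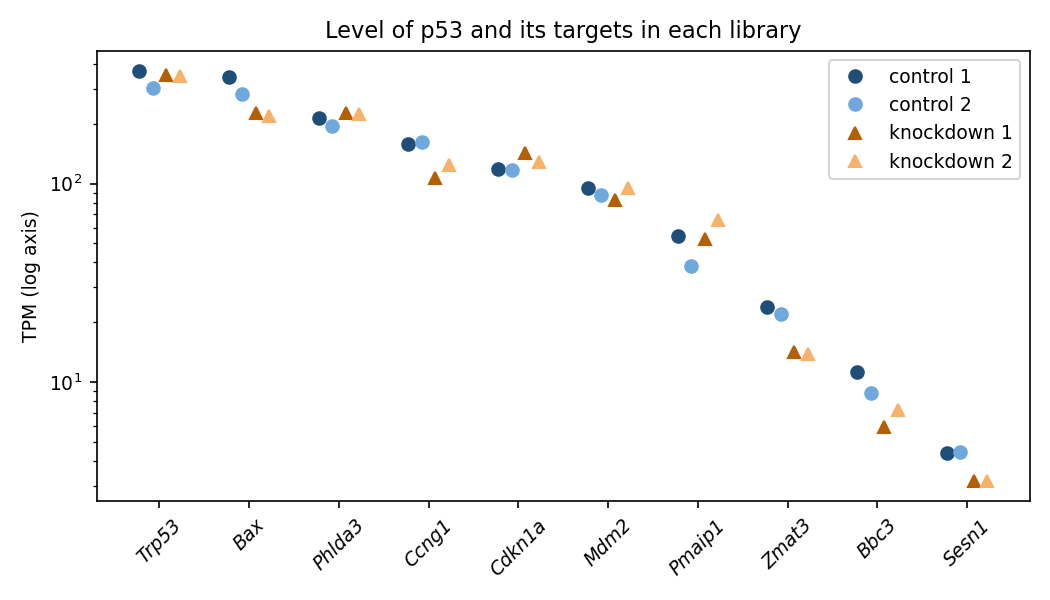
TPM of each gene (log axis) in the 4 libraries, with circles for the controls and triangles for the knockdown libraries, ordered by control mean. Trp53 lies above 300 TPM in every library and Sesn1 under 5 TPM. The triangles of Zmat3, Bax, Ccng1, Bbc3 and Sesn1 lie below their circles, and those of Cdkn1a and Phlda3 above.

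Setdb1 RNA was at 14.6 and 17.5 TPM in the controls and 3 and 2.51 TPM in the knockdown libraries (log2 fold change -2.49, SE 0.182, edgeR adjusted p = 1.495e-04), as the labels state. The libraries held 19513567 to 19615440 expected counts. Of 12 hepatocyte markers, Alb, Afp, Trf, Krt8 and Krt18 were at 429 TPM or more in all libraries, while Ttr, Apoa1 and Serpina1a were under 1 TPM. Of 17 markers of leukocytes, endothelium, stroma and bile duct, 14 were under 1 TPM in all libraries, among them Ptprc, Pecam1 and Col1a1, and Acta2, Cd3e and Lrat were at 0. Among the tested hepatocyte markers 2 rose (Alb and Fgb) and 2 fell (Apob and Hnf4a), and among the others Epcam and Col1a1 rose. The summed level of the 17 was 14.3 and 15.4 TPM in the controls and 27.6 and 27.7 TPM in the knockdown libraries, mostly from Epcam. Their part in the results below was not tested. In bulk RNA, fewer cells that express a gene and less RNA per cell cannot be told apart.

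Neither the transcription factor nor its main inhibitor passed the test, for which edgeR's p-value, adjusted over all genes tested, had to be below 0.05. Trp53 (chromosome 11, 69580359 to 69591873, GRCm38) was at 368 and 303 TPM in the controls and 351 and 346 TPM in the knockdown libraries. Both knockdown values lay between the control values, and the log2 fold change was 0.11 (95% interval -0.22 to 0.45, edgeR adjusted p = 0.7149). Mdm2 (chromosome 10, 117688875 to 117710758), the ubiquitin ligase that targets p53, was at 95.4 and 87.9 TPM in the controls and 82.4 and 94.5 TPM in the knockdown libraries. Here too the groups overlapped, with a log2 fold change of -0.02 (95% interval -0.33 to 0.28, edgeR adjusted p = 0.9584). The sign of either value turned when a library was left out: Trp53 was at -0.05 without control 2, and Mdm2 at 0.07 without control 1 and 0.05 without knockdown 1. These intervals leave room for a change of up to 1.36-fold for Trp53 and 1.22-fold for Mdm2 upward.

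Of the 10 genes 1 passed the test, and it fell. Zmat3 (chromosome 3, 32334792 to 32366014), a p53-induced zinc finger protein that binds RNA, was at 23.8 and 22.0 TPM in the controls and 14.1 and 13.9 TPM in the knockdown libraries. Its counts were 2178 and 2190 against 1489 and 1499, so each group was tight and the groups lay well apart. The log2 fold change was -0.54 (SE 0.129, 95% interval -0.83 to -0.25, edgeR adjusted p = 0.04185), or 69% of the control level. Among all genes tested 5.96% were called, 1.76% as lower, beside 1 of the 10 here. In edgeR 0 of the 10 genes were called higher, and 0 at an unadjusted p under 0.05, as in the DESeq2 and limma calls. At an unadjusted p under 0.05 in edgeR, 3 were lower (Zmat3, Ccng1 and Bax). Of all 12821 genes tested, 1177 were lower and 1554 higher at that threshold, or 21.3% in either direction. The call of Zmat3 sat close to the threshold. Leaving out control 2 raised the edgeR adjusted p to 0.056, leaving out knockdown 1 to 0.1 and leaving out knockdown 2 to 0.107. The call held when control 1 was left out (0.0452) and in DESeq2 (adjusted p = 0.0137).

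The size of the Zmat3 difference depended on the scale. The deposited mean transcript length of Zmat3 was 6159 bases in control 1, 6786 in control 2, 6857 in knockdown 1 and 7037 in knockdown 2. TPM divides by the effective length, which follows this length, and on log2(TPM + 1) the difference was -0.67 (limma adjusted p = 0.0781). The annotation holds Zmat3 transcripts of 440, 3813, 7672 and 7797 bases, and values per transcript were not analysed here.

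**Figure D2:**
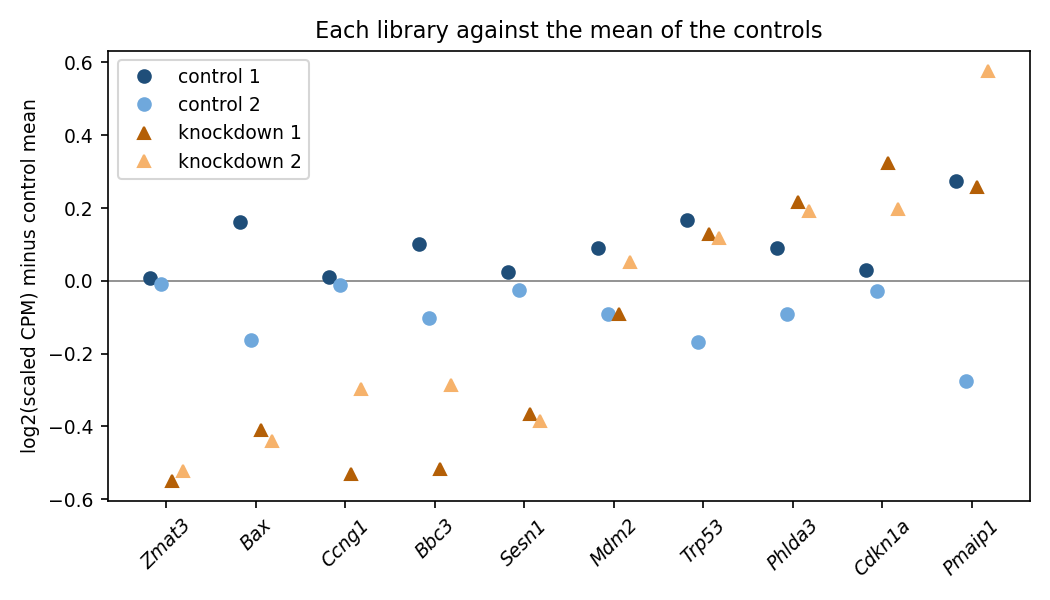
log2 of CPM (read counts scaled to a common library size by TMM) minus the mean of the controls, for each gene and library (circles for controls, triangles for knockdown libraries). Zmat3 shows the widest gap between the groups, 0.515, and Pmaip1 the widest spread between the controls, 0.549.

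Cdkn1a and Ccng1, grouped here as cell cycle genes, lay on opposite sides of the controls, and neither passed the test. Cdkn1a (chromosome 17, 29090976 to 29100727), which encodes the cyclin-dependent kinase inhibitor p21, was at 118 TPM in both controls and at 142 and 129 TPM in the knockdown libraries. Both knockdown libraries were above both controls, but the log2 fold change of 0.26 did not pass (SE 0.129, 95% interval -0.03 to 0.55, edgeR adjusted p = 0.2809). Ccng1 (chromosome 11, 40748552 to 40755311), cyclin G1, which recruits a phosphatase to Mdm2, was at 159 and 161 TPM in the controls and 106 and 124 TPM in the knockdown libraries. Both knockdown libraries were below both controls, and the log2 fold change of -0.41 did not pass (SE 0.137, 95% interval -0.72 to -0.10, unadjusted p = 0.0145 and adjusted p = 0.1208 in edgeR). AC167363.2, on the opposite strand, shares 273 exon bases with Cdkn1a and held 1 to 5 counts per library against at least 2932 for Cdkn1a.

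None of the 3 apoptosis genes passed the test. Bax (chromosome 7, 45461697 to 45466898), which permeabilises the outer mitochondrial membrane, was at 344 and 282 TPM in the controls and 227 and 219 TPM in the knockdown libraries. The knockdown libraries were close together and below both controls, and the log2 fold change was -0.43 (SE 0.147, 95% interval -0.76 to -0.11, unadjusted p = 0.01487 and adjusted p = 0.1223 in edgeR). Without control 2 it was -0.59 and passed (edgeR adjusted p = 0.0308), and without control 1 it was -0.27. Bax had fractional counts in 3 libraries and shares 192 exon bases with Gm45808, which held 4 to 18 counts, against at least 2322 for Bax.

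Bbc3 (chromosome 7, 16308393 to 16318205) encodes PUMA, a BH3-only protein that releases Bax and Bak from their inhibitors. It was at 11.2 and 8.82 TPM in the controls and 5.95 and 7.25 TPM in the knockdown libraries, from 112 to 171 counts. The groups did not overlap, but the log2 fold change of -0.40 had an interval from -0.89 to 0.09 (edgeR adjusted p = 0.3315). On log2(TPM + 1) the difference was -0.53 (limma adjusted p = 0.231). The effective length of Bbc3 was 985 and 1126 bases in controls 1 and 2, and 1176 and 1126 in knockdowns 1 and 2. Pmaip1, which encodes the BH3-only protein Noxa, was at 54.5 and 38.5 TPM in the controls and 52.7 and 65.2 TPM in the knockdown libraries. Its groups overlapped, since control 1 lay above knockdown 1, and the log2 fold change was 0.40 (SE 0.194, 95% interval -0.03 to 0.83, edgeR adjusted p = 0.2733). The controls were far apart, with control 2 the lower. Without control 1 the value was 0.70 and passed (edgeR adjusted p = 0.0167), and without control 2 it was 0.15.

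Of the genes that act on growth signalling, Sesn1 (chromosome 10, 41809935 to 41908424), a sestrin that restrains mTORC1, was at 4.40 and 4.43 TPM in the controls and 3.18 TPM in both knockdown libraries. The groups were apart by more than the spread within either, from 125 to 167 counts per library. The log2 fold change of -0.38 did not pass (95% interval -0.84 to 0.09, edgeR adjusted p = 0.3317). Phlda3 (chromosome 1, 135766119 to 135769136), a pleckstrin homology protein that competes with Akt for membrane lipids, was at 213 and 194 TPM in the controls and 228 and 225 TPM in the knockdown libraries. Its knockdown libraries were above both controls, with a log2 fold change of 0.20 (95% interval -0.09 to 0.50, edgeR adjusted p = 0.4209).

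Across the 10 genes the knockdown libraries were both above both controls in 2 and both below in 5, and overlapped in 3. Such separation was seen in 51.6% of all genes tested, 26.4% above and 25.2% below. The median log2 fold change of the 10 was -0.20, against -0.01 over all genes tested. The 95% intervals of all 10 lay inside a 2-fold change in either direction, from 0.539-fold for the lower bound of Bbc3 to 1.78-fold for the upper bound of Pmaip1, and 7 of the 10 included no change. With 2 libraries on each side the smallest exact permutation p is 0.333, and single genes were not tested that way.

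**Figure D3:**
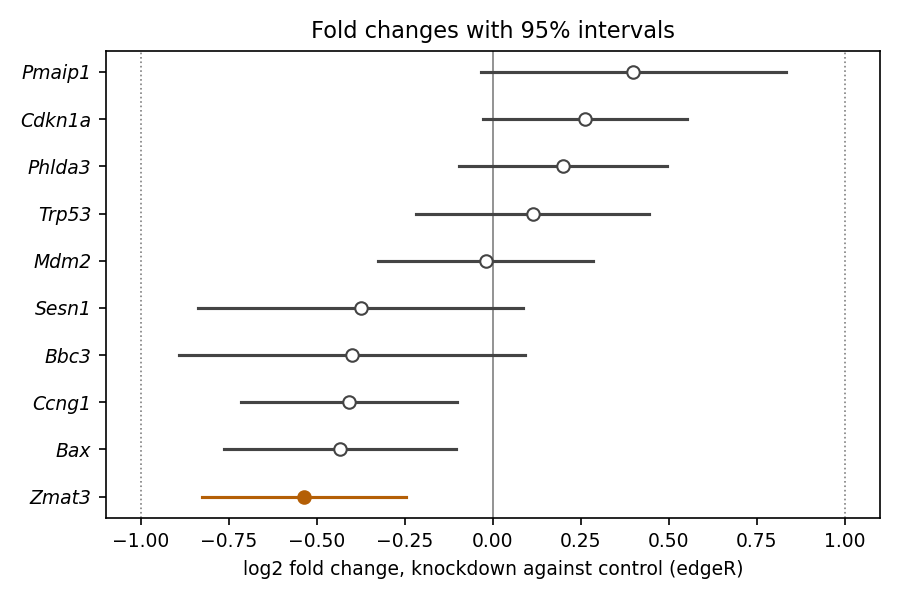
log2 fold changes of the 10 genes from edgeR with 95% intervals (lines); the filled point passed the adjusted threshold of 0.05 and dotted lines mark a 2-fold change. Zmat3 is the filled point at -0.54, and no interval reaches a dotted line.

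Of 55 other known p53 target genes, listed by name, 51 had enough counts to test, and 3 rose, 0 fell and 48 did not pass. At an unadjusted p under 0.05, 6 were higher and 5 lower in edgeR, DESeq2 called 1 lower and limma 0, and the median log2 fold change was -0.05. The share called higher over all genes was 4.2%. With any one of the 4 libraries left out, edgeR called 3 to 5 of the 51 higher and 1 to 3 lower, the 5 without control 1. Ephx1, the microsomal epoxide hydrolase, was at 62.8 and 47.7 TPM in the controls and 155 and 158 TPM in the knockdown libraries (log2 fold change 1.54, SE 0.165, edgeR adjusted p = 8.86e-04). Thbs1, the matrix protein thrombospondin 1, was at 92.7 and 76.6 TPM against 157 and 160 TPM (0.95, SE 0.149, edgeR adjusted p = 0.006405). Ephx1 and Thbs1 are known to answer to other pathways as well.

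Among the 48 other targets that did not pass were 9 damage response genes, named after their values were seen. Ei24 had a log2 fold change of 0.29, Perp 0.27, Gadd45a 0.21, Aen 0.08, Fas 0.04, Ddb2 -0.05, Eda2r -0.12, Ppm1d -0.13 and Trp53inp1 -0.32. The edgeR adjusted p-values of these 9 ran from 0.2992 for Trp53inp1 to 0.942 for Fas. They do not show the spread of the 48. Others that did not pass differed more, among them Notch1 at -0.83, Sulf2 at -0.61, Ak1 at 0.55 and Btg2 at 0.46.

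Of 33 regulators and partners of p53, all tested, Setdb1 was the 1 that fell in edgeR, and 0 rose in edgeR, DESeq2 or limma. At an unadjusted p under 0.05, 3 were lower, Setdb1 among them, and 0 higher. DESeq2 called 2 of them lower and limma 1, and edgeR called 3 lower without control 1 or without knockdown 1. Among the other 32, 23 had a log2 fold change below 0 and 9 above (28.1%), with a median of -0.17. Over all genes tested 49.5% were above 0, and whether the 32 differed from that share was not tested. Mdm4, the Mdm2 relative that blocks p53 activity, was at 0.09, the deubiquitinase Usp7 at -0.09, and Cdkn2a, whose p19Arf product inhibits Mdm2, at -0.13 (edgeR adjusted p from 0.7557 to 0.7672). These 3 were named after their values were seen, and they do not show the spread of the 32. Rbbp6 was at -0.75 and Trp53bp1 at -0.50 (unadjusted p = 0.017 and 0.0414, adjusted p = 0.1319 and 0.212 in edgeR). The highest value was that of Chek1, at 0.32 (edgeR adjusted p = 0.4518).

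Among 12 paralogs of the 10 genes, 8 were tested, and 2 rose, 0 fell and 6 did not pass (at an unadjusted p under 0.05, 1 was lower, with 0 in DESeq2 and limma). The Sesn1 relative Sesn3 was at 6.37 and 8.25 TPM in the controls and 11.01 and 10.92 TPM in the knockdown libraries (log2 fold change 0.81, SE 0.137, edgeR adjusted p = 0.008882). The Bax relative Bak1, the other pore-forming protein of the mitochondrial membrane, was at 55.2 and 48.9 TPM against 75.0 and 82.7 TPM (0.70, SE 0.140, edgeR adjusted p = 0.0186). On log2(TPM + 1) neither passed in limma (adjusted p = 0.208 for Sesn3 and 0.0689 for Bak1). Whether Bak1 differed from Bax, or Sesn3 from Sesn1, was not tested. Trp73 and Cdkn1c were at 0 TPM in all libraries, and Trp63 was under 1 TPM.

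Of 10 tested members of the BCL2 family outside the 10 genes, Bak1 rose, 0 fell and 9 did not pass. At an unadjusted p under 0.05 in edgeR, 3 were higher, Bak1 among them, and 2 lower, with 0 called lower in DESeq2 and limma. Over all genes tested, 21.3% were under that unadjusted threshold in either direction. The apoptosis inhibitors Mcl1 (-0.39, edgeR adjusted p = 0.1769) and Bcl2l1 (0.34, edgeR adjusted p = 0.2022), named after their values were seen, had opposite signs. The inhibitors Bcl2 and Bcl2l2 were at 0.27 and 0.11. The lowest value of the 10 was that of Bmf, at -0.90 (edgeR adjusted p = 0.1182), and the highest that of Bak1, at 0.70. The 36 cell cycle genes listed for p21, E2F and the DREAM repressor complex include parts of that complex, such as Lin9 and Lin54. Of the 36, E2f2 rose, 0 fell and 35 did not pass. At an unadjusted p under 0.05 in edgeR, 2 were higher, E2f2 among them, and 1 lower. DESeq2 called 2 higher and 0 lower, and limma 0 in either direction. The median of the 36 was 0.01, with 19 above 0 and 17 below, beside 49.5% above 0 over all genes tested. E2f2 was at 1.51 and 1.73 TPM in the controls and 3.74 and 2.64 TPM in the knockdown libraries (log2 fold change 1.04, SE 0.237, edgeR adjusted p = 0.03337, or 0.159 without knockdown 1).

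**Figure D4:**
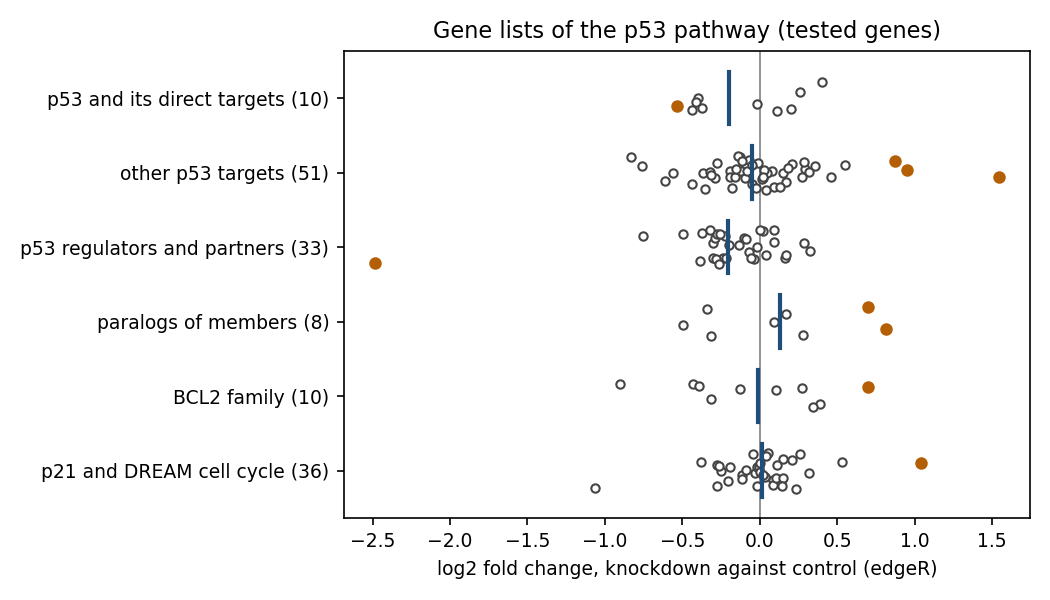
log2 fold changes of the tested genes of each list (number tested in brackets), with filled points for genes that passed the adjusted threshold of 0.05, small vertical offsets for legibility, and a vertical bar at the list's median. The medians run from -0.20 to 0.13, and the filled point at -2.49 is Setdb1.

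Genes whose log2 CPM deviated across the 4 libraries most like Trp53 were Atraid, Drap1 and Cisd1, at Euclidean distances of 0.0144, 0.0184 and 0.0246. For Cdkn1a they were Mid1ip1, Birc3 and Serhl, at 0.0178, 0.0222 and 0.0242. With 4 libraries such likeness is common: 1016 of 9507 genes lay within 0.2 of Trp53 and 832 within that distance of Cdkn1a.

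**Figure D5:**
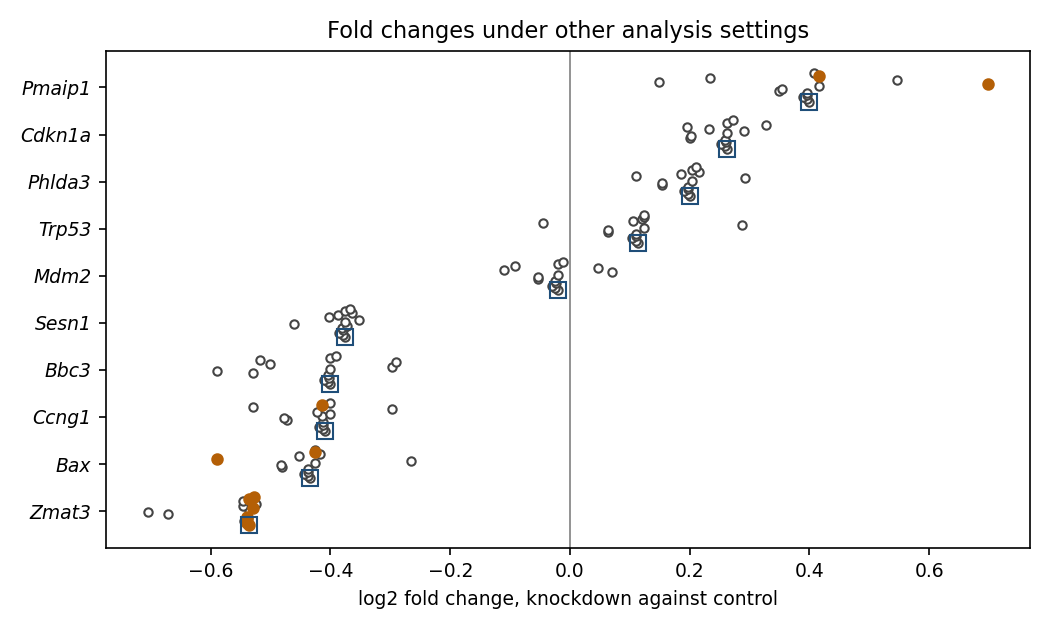
log2 fold changes of the 10 genes in the reported analysis (squares) and under 13 other settings (circles), filled where the adjusted p was under 0.05. Zmat3 stays between -0.71 and -0.53 throughout but is filled in only part of the settings, and Mdm2 and Trp53 fall on both sides of 0.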

How the data were processed

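Total RNA of 4 libraries was made into sequencing libraries with a directional kit, per the labels' protocols. The submitters' processing notes name RSEM, STAR, DESeq2 and FastQC, with mm10 and GRCm38 as builds. For the annotation release and the strand setting, the sources used here give nothing. The deposited expected counts are estimated counts per gene, per the file headers, and the deposited TPM values are scaled per effective length. RSEM shares a read among the features it fits, so paralogs are less certain.

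Expected counts were rounded. Library sizes were sums over all 115821 rows. The test was edgeR's quasi-likelihood F-test (version 4.0.16, R 4.3.3) with TMM, filterByExpr and group alone (12821 genes; Benjamini-Hochberg threshold 0.05; 2 residual and 7.52 prior degrees of freedom; biological coefficient of variation 13.6%). SEs come from the F statistic. A count was called whole within 0.005 of an integer. Alternatives used DESeq2 1.42.0 and limma 3.58.1, 12 planned and 1 added. Coordinates and overlaps come from GENCODE M21 (GRCm38), where 9 of the 10 genes had the files' gene version; Pmaip1 did not, so its coordinates are not given. In counts simulated for these 12821 genes, the test found 73.9% of the 2-fold changes and 97.3% of the 4-fold ones, and 3.22% of calls were false. No share is given for smaller changes, and each of the 10 genes differed by less than 2-fold. A chi-square per gene of 26.1 for the control pair and 23.8 for the knockdown pair put replicates beyond counting noise.

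The 10 genes and the lists were chosen with earlier results of these data known. Named by rule were the 10 genes, Setdb1, up to 4 called genes of each list and direction, and the 3 genes most like Trp53 and Cdkn1a (at least 5 CPM on average, prior count 2). 1 called gene that the rule names is not reported here. No list test was made.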

Additional observations from a re-analysis of the deposited data

How the results depend on the processing

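Of the 10 genes 1 was called under the reported settings. The call count was 0 without a filter on low counts, with limma on log2(TPM + 1) or log2(TPM + 0.1), and 0 to 2 when each library was left out, with 0 or 1 in each direction. With each library left out, Mdm2 ranged from -0.11 (without control 2) to 0.0702 (without control 1; 0.0467 without knockdown 1) and Trp53 from -0.0452 (without control 2) to 0.288 (without control 1); the other 8 genes kept their sign in all 13 alternatives. Zmat3 kept a log2 fold change of -0.71 to -0.53 and lost its call in 7 of 13 (adjusted p from 0.00252 to 0.181).

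Over all genes 764 were called (538 higher, 226 lower). Without a filter 0 were called in edgeR (0 higher, 0 lower, 3379 at an unadjusted p under 0.05). limma called 334 (245 higher, 89 lower) with a pseudocount of 1 and 327 (242 and 85) with 0.1. Leaving out one library gave 740 to 1677 calls (543 to 982 higher, 197 to 695 lower), the most without control 1.

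The replicate numbers are not said to pair the libraries. The replicate block gave 0 of the 10 genes called (Zmat3 adjusted p = 0.0653). Same-numbered libraries had only a weak tendency to deviate in opposite directions (correlation -0.183). The crossed pairing, chosen after seeing the data, called 2339 genes (1352 higher, 987 lower) and 4 of the 10 (1 higher, 3 lower). The cause was not tested. Of the lists, 0 genes were called without a filter. limma called 2 other targets higher, Setdb1 lower, and 0 paralogs, BCL2 family or cell cycle genes. DESeq2 added 1 other target lower, 1 regulator lower and 1 cell cycle gene higher; the replicate block added 1 other target, 1 regulator and 1 cell cycle gene, each lower. Leaving out one library gave 3 to 5 other targets higher and 1 to 3 lower, 1 to 3 regulators lower, 2 to 3 paralogs higher and 0 to 1 lower, 1 BCL2 gene higher and 0 to 3 lower, and 1 to 2 cell cycle genes higher and 0 to 1 lower. The crossed pairing called 6 other targets higher and 5 lower, 3 regulators lower, 2 paralogs higher and 1 lower, 1 BCL2 gene higher and 2 lower, and 2 cell cycle genes in each direction. Sesn1 and Bbc3, with 112 to 171 counts per library, had the largest SEs of the 10 genes (0.206 and 0.219).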
